A study of Mus musculus with 6 samples.

Results

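The 7 genes described here are members of the Slco family, which encodes the organic anion transporting polypeptides. They were taken by gene symbol from an expression table of 26264 genes, and all 7 were found: Slco2a1, Slco3a1, Slco2b1, Slco1b2, Slco1a1, Slco4a1 and Slco1a4. RNA was measured in endothelial cells of mouse liver from 6 libraries. In the 3 PLX5622 libraries, C57BL6 mice had eaten a diet with 1200 ppm PLX5622, an inhibitor of the receptor kinase CSF1R on which most tissue macrophages depend, for 1 month. In the 3 control libraries, C57BL6 mice had eaten a control diet for the same time. Cells of 1 liver lobe were sorted on the endothelial surface protein CD31, the product of Pecam1, and the labels give neither the sex nor the age of the mice. The series asked whether the drug affects cholesterol metabolism of endothelial cells outside the central nervous system.

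The proteins of this family sit in the plasma membrane and take up amphipathic organic anions without coupling to sodium. Their substrates include bile salts, bilirubin, steroid sulfates, thyroid hormones, prostaglandins and many drugs. In mouse liver the Slco1a and Slco1b proteins are best known from the sinusoidal membrane of hepatocytes, whereas Slco2a1 carries prostaglandins in many endothelia. The members were chosen from the measured values of the diet comparison, among them the call of Slco2b1 by the authors, so all differences between the diets below are descriptions and not tests.

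Levels are in TPM, a share of transcripts scaled by gene length, so that levels of different genes can be compared. The libraries held between 14517959 and 32732212 reads over 15097 genes, as worked out from the deposited values. Pecam1 averaged 1712 ± 148 TPM on PLX5622 and 1682 ± 259 TPM on the control diet (SD, n = 3 each), and 0 of 16 pan-endothelial marker genes were at 0 in all libraries. The sort also held hepatocyte RNA: summed over 23 hepatocyte marker genes, 0 of them at 0 throughout, the level was 1576 to 3244 TPM in PLX5622 libraries and 2370 to 5349 TPM in control libraries. Control replicate 1 and PLX5622 replicate 1 stood apart from the other libraries. Their mean levels of sinusoidal endothelial markers were the lowest, at 8.85 in PLX5622 replicate 1 and 8.72 in control replicate 1 on the log2(TPM + 1) scale. Their mean levels of markers of continuous and large vessels were the highest, at 8.29 and 8.28. Control replicate 1 also had the highest hepatocyte level and PLX5622 replicate 1 the lowest. In bulk RNA, fewer cells of a type and less RNA per cell cannot be told apart.

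Slco transcripts in these cells were mostly those of Slco2a1, the prostaglandin transporter, and Slco3a1, a broadly expressed carrier of prostaglandins and thyroxine. Together they made up 86.3% to 92.7% of the summed TPM of all Slco genes in the 6 libraries. Slco2a1 alone stood above 97.7% of the 19093 genes with any signal by its mean level, and Slco3a1 above 92.0%. Slco2b1, a carrier of steroid sulfates that humans express in gut, liver and endothelium, came next and stood above 71.0% of these genes. The ranges of these 3 genes over the 6 libraries did not overlap with one another, nor did that of Slco2b1 with the next in order. Below them the ranges overlapped in each neighbouring pair. Slco1b2 was above Slco1a1 in 6 of 6 libraries, Slco1a1 above Slco4a1 in 5 of 6, and Slco4a1 above Slco1a4 in 6 of 6. The summed Slco level was 535 ± 77.0 TPM on PLX5622 and 513 ± 40.4 TPM on the control diet (SD, n = 3 each).

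**Figure D1:**
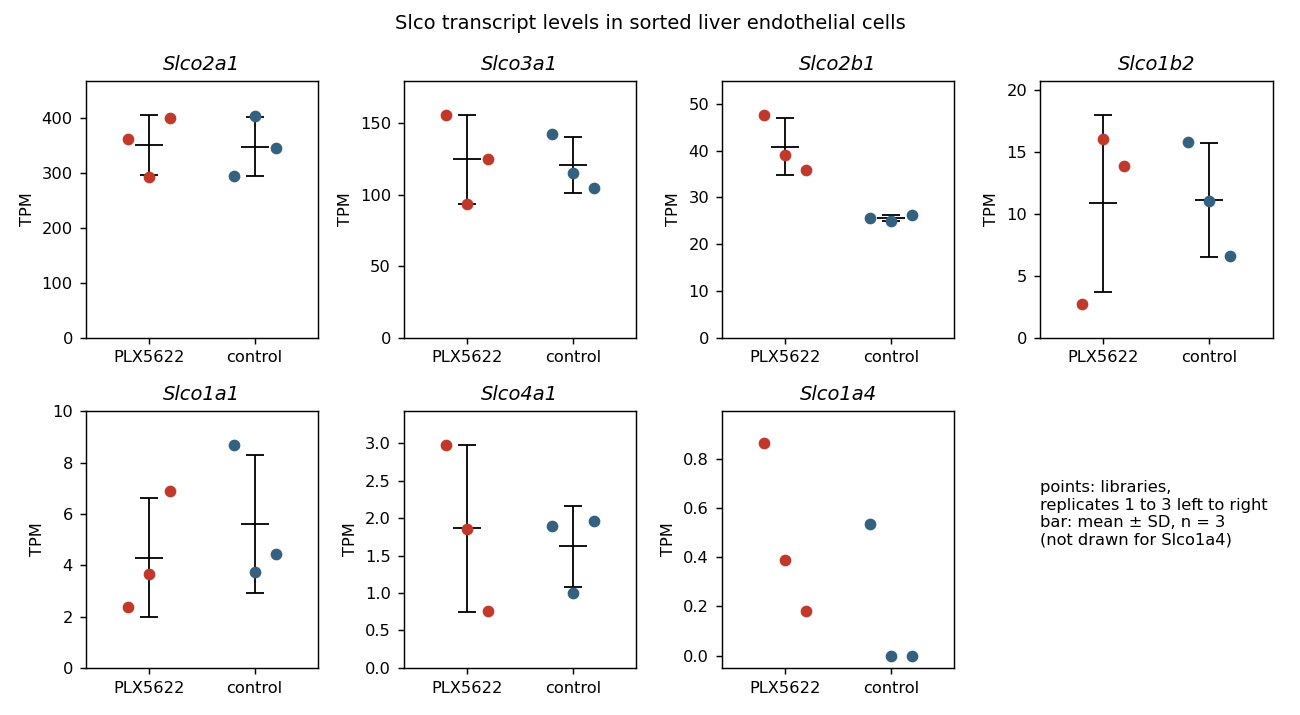
TPM of the 7 Slco genes in each library, PLX5622 left and control right in each panel, in order of mean level; each panel has its own linear axis, and bars are mean ± SD (n = 3), not drawn for Slco1a4. For Slco2b1 the PLX5622 libraries lie between 35.8 and 47.7 TPM, all above the control libraries at 25.0 to 26.1 TPM; in the other 6 genes the diets overlap.

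Slco2b1 was the member with the clearest difference between the diets. It had 47.7, 39.1 and 35.8 TPM in PLX5622 replicates 1 to 3, against 25.6, 25.0 and 26.1 TPM in control replicates 1 to 3. Every PLX5622 library lay above every control library, with PLX5622 replicate 1 highest and the control libraries close together. These levels rested on 1853, 1172 and 1279 reads in the PLX5622 libraries and on 1237, 1423 and 659 reads in the control libraries. The coefficient of variation was 15.1% among PLX5622 libraries and 2.30% among control libraries. Counting error alone is 2.32% to 2.92% for the reads of the PLX5622 libraries and 2.65% to 3.90% for those of the control libraries, so the control libraries spread no more than counting allows. The log2 fold change of PLX5622 over control was 0.65 on the log2(TPM + 1) scale (95% interval 0.34 to 0.95, limma), a ratio of 1.57 with bounds of 1.27 and 1.93.

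The diets did not overlap in 1 of 6 members past the filter of a mean of 1 TPM, namely Slco2b1. Over all 13739 genes that passed this filter, 8.68% did not overlap in either direction and 4.18% had the PLX5622 libraries higher. Adjusted over these genes, limma called 0 members and 0 genes, or 0% of those tested. At an unadjusted p under 0.05 the count was 1 of 6 members, Slco2b1, beside 3.34% of all genes tested; nothing is read from this, since the choice used the same contrast. In the authors' deposited table Slco2b1 has a log2 fold change of 0.69 (SE 0.16) and an adjusted p of 0.0267 from DESeq2, and is 1 of 7 genes called higher, or 0.0464% of 15097 genes; 0.0729% are called in either direction. The choice of the members made use of that call, so it supports nothing further here. The other 6 members are not called in the authors' deposited table.

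Slco2b1 stood at a lower level than its relative Slco2a1 in every library, but its share of the pair differed by diet. It made up 11.6%, 11.8% and 8.20% of the summed Slco2 transcripts in PLX5622 replicates 1 to 3, against 7.97%, 5.83% and 7.05% in control replicates 1 to 3. The shares did not overlap, although PLX5622 replicate 3 lay only just above control replicate 1. Among all Slco transcripts the share of Slco2b1 was 7.72 ± 1.40% on PLX5622 and 5.01 ± 0.48% on the control diet (SD, n = 3 each). As Slco2a1 had a log2 fold change of 0.01 (limma), these shares restate the difference in Slco2b1 and are no separate result.

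Single markers of Kupffer cells, the liver macrophages, were lower on PLX5622 in the same libraries. Clec4f, a lectin of Kupffer cells, had 3.37, 10.1 and 10.2 TPM in PLX5622 replicates 1 to 3, against 22.0, 13.1 and 34.6 TPM in control replicates 1 to 3. Csf1r, which encodes the receptor that PLX5622 inhibits, had 1.26, 3.13 and 4.21 TPM in the PLX5622 libraries, against 7.13, 5.99 and 8.68 TPM in the control libraries. Both were lower in each PLX5622 library than in any control library. PLX5622 replicate 1, which was lowest in both, was highest in Slco2b1, but this is a single library. Among the control libraries Clec4f ran from 13.1 to 34.6 TPM while Slco2b1 stayed between 25.0 and 26.1 TPM. A link between these genes was not tested. Of 20 genes in the Kupffer list, 0 were at 0 throughout. Of the 19 tested, 16 had a fold change below 0, 3 had one above 0 and 0 passed the adjusted test (limma), with a median of -0.71, against -0.02 over all genes. The diets did not overlap in 6 of the 19, all lower on PLX5622, against 8.68% of all genes tested in either direction. The summed level of the list was 1545 to 1811 TPM in PLX5622 libraries and 1499 to 1966 TPM in control libraries, with overlap. The Kupffer level, the mean log2(TPM + 1) of the list, was 2.85, 3.51 and 3.39 in the PLX5622 libraries. In the control libraries it was 3.80, 3.52 and 4.07, without overlap. A fit with this level as a covariate can therefore hardly tell diet and Kupffer level apart. With the Kupffer level as a covariate the log2 fold change of Slco2b1 was 0.49 (95% interval 0.03 to 0.96, limma), and with the hepatocyte level as a covariate it was 0.60 (95% interval 0.27 to 0.93). Whether the Slco2b1 transcripts came from one cell type or from several was not tested.

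**Figure D2:**
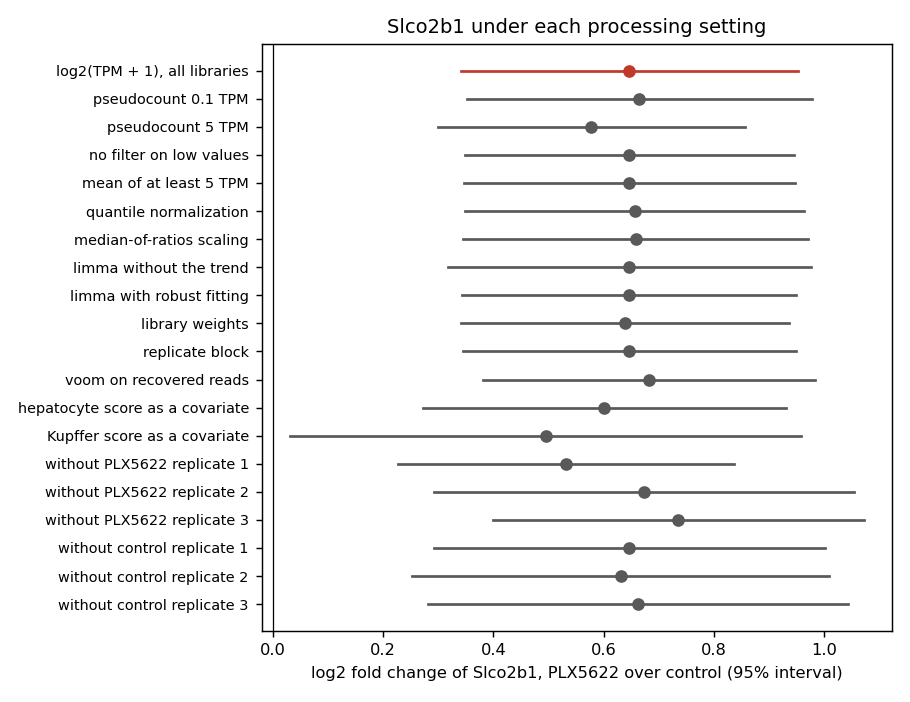
Log2 fold change of Slco2b1, PLX5622 over control, with its 95% interval (limma) under the setting used in the text (red, top) and under each alternative (grey). The values lie between 0.49 and 0.73, the lowest with the Kupffer level as a covariate and the highest without PLX5622 replicate 3.

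The Slco2b1 gene has 3 promoter windows in RefSeq (build GRCm38.p6), and libraries without strand or isoform values do not show which start site the reads came from. The window of the outermost start is printed because Slco2b1 is the member whose diets differed, with the bases before the start site at chr7:99711341-99711590 on the minus strand. It holds none of the 3 short motifs searched on both strands, which are given below with the Slco1 promoters, and so has no capitals. Of the other windows of the gene, the second has one nuclear receptor half-site 160 bases before its start, on the opposite strand.
Slco2b1: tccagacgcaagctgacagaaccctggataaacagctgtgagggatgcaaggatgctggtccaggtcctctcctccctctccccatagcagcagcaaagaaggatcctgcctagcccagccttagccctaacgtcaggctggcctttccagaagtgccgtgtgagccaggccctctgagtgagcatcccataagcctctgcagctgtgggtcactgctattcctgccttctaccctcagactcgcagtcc
In the GENCODE M21 annotation 9.21% of the exon bases of Slco2b1 overlap the antisense genes Gm15635 and Gm34280. The libraries did not keep strand, so reads there cannot be assigned to one strand.

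Slco2a1 had 363, 292 and 400 TPM in PLX5622 replicates 1 to 3, against 295, 403 and 345 TPM in control replicates 1 to 3. The diets covered the same range. Its log2 fold change was 0.01 (95% interval -0.34 to 0.37, limma), and with at least 8208 reads in each library counting error was small beside the spread between libraries. The ratio of Slco2a1 to Slco3a1 was 2.33, 3.12 and 3.20 in the PLX5622 libraries and 2.07, 3.50 and 3.31 in the control libraries, lowest in the first replicate of each diet.

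Slco3a1 had 156, 93.4 and 125 TPM in PLX5622 replicates 1 to 3, against 143, 115 and 104 TPM in control replicates 1 to 3. The PLX5622 libraries held both the highest and the lowest value. Its log2 fold change was 0.03 (95% interval -0.43 to 0.49, limma). The highest library of each diet was replicate 1, which was also the library of that diet with the highest level of continuous and large vessel markers. Over the 6 libraries the profile of Slco3a1, centred on the log2 scale, differed from that of this marker list by a root mean square of 0.17, and from that of the sinusoidal list by 0.56. For Slco2a1 the differences were 0.30 and 0.30, and its profile was closest to that of the pan-endothelial list, at 0.15. For Slco2b1 they were 0.30 and 0.57, beside 0.33 for the lymphatic endothelial list and 0.36 for the pan-endothelial list. The profile of Slco2b1 itself spread by 0.35, so 0.30 is no close likeness. The profiles of Slco3a1 and Slco2a1 themselves spread by 0.25 and 0.19. The lists also varied unequally: the centred pan-endothelial list stayed between -0.08 and 0.04, and the sinusoidal list ran from -0.52 to 0.37. A gene that varies little lies closer to a list that varies little, whatever its course. These are descriptions of 6 libraries that share their depth and cell mixture, and no list was found to be the source of a gene.

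**Figure D3:**
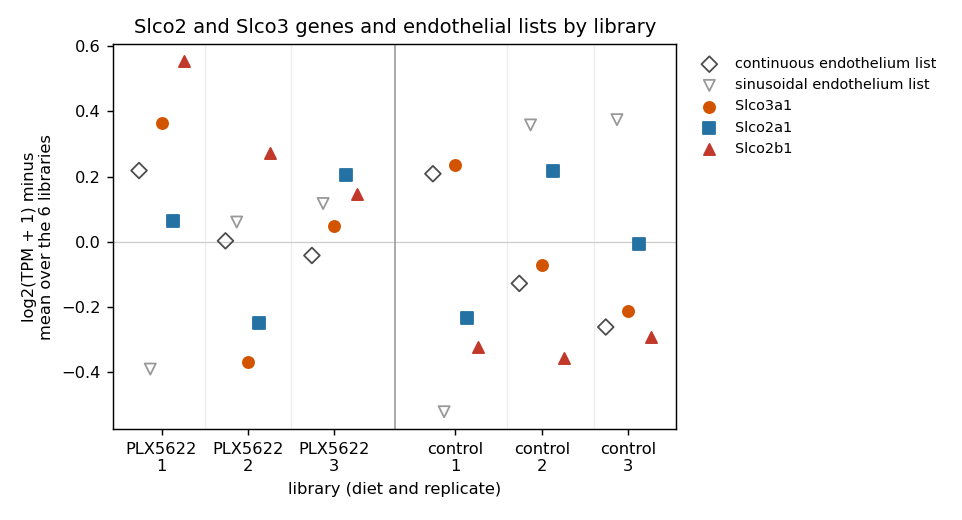
Log2(TPM + 1) of Slco2a1, Slco3a1 and Slco2b1 (filled symbols) and the mean over 20 continuous and large vessel markers and 16 sinusoidal markers (open symbols), each minus its own mean over the 6 libraries, in PLX5622 replicates 1 to 3 (left) and control replicates 1 to 3 (right). Slco3a1 and the continuous vessel list are high in replicate 1 of each diet, where the sinusoidal list is low; Slco2b1 is above its mean in the PLX5622 libraries and below it in the control libraries.

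Slco4a1, a carrier of thyroid hormone found in many tissues, was scarce. It had 2.98, 1.85 and 0.756 TPM in PLX5622 replicates 1 to 3, against 1.89, 1.00 and 1.97 TPM in control replicates 1 to 3. The reads behind these values numbered 77, 37 and 18 in the PLX5622 libraries and 61, 38 and 33 in the control libraries, which gives counting errors of 11.4% to 23.6% and of 12.8% to 17.4%. The diets overlapped, and the log2 fold change was 0.07 (95% interval -0.82 to 0.96, limma). Without PLX5622 replicate 3, the lowest library, it was 0.38, and without PLX5622 replicate 1, the highest, it was -0.21, so no direction can be given.

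**Figure D4:**
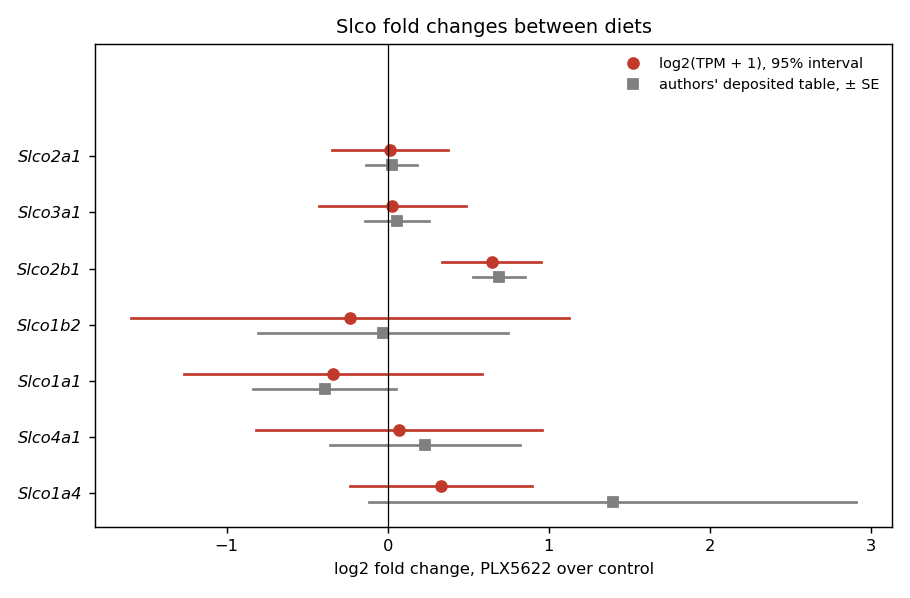
Log2 fold change of PLX5622 over control for the 7 Slco genes, from limma on log2(TPM + 1) with 95% intervals (red circles; Slco1a4 from the fit without a filter on low values) and from the authors' deposited table with standard errors (grey squares). The interval lies wholly above 0 for Slco2b1, at 0.34 to 0.95, and includes 0 for the other 6 genes. The intervals are not adjusted over genes and the members were chosen with this contrast known, so they are descriptions and not tests.

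The 3 Slco1 genes that mouse hepatocytes use for uptake from blood were all detected in the sorted cells, at a summed level of 15.7 ± 8.44 TPM on PLX5622 and 17.0 ± 7.24 TPM on the control diet (SD, n = 3 each). Slco1a1 and Slco1b2 take up bile salts and conjugated anions, and Slco1a4, which brain endothelium also uses, carries cardiac glycosides and bile salts. None of the 3 separated the diets, and each followed a course of its own across the libraries.

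Slco1a1 had 2.36, 3.65 and 6.89 TPM in PLX5622 replicates 1 to 3, against 8.70, 3.73 and 4.44 TPM in control replicates 1 to 3. The diets overlapped, and the highest library was 3.68 times the lowest. The log2 fold change was -0.34 (95% interval -1.26 to 0.58, limma). It was -0.03 without control replicate 1, the library with the most hepatocyte RNA, and -0.06 with the hepatocyte level as a covariate.

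Slco1a1 kept nearly the same distance from the mean of the hepatocyte markers in every library, though not from the single marker Alb. The hepatocyte level, the mean log2(TPM + 1) of 23 marker genes with no Slco gene among them, was 5.25, 5.63 and 6.39 in PLX5622 replicates 1 to 3, against 6.76, 5.71 and 5.68 in control replicates 1 to 3. Slco1a1 lay below it by a difference of -3.50, -3.42 and -3.41 in the PLX5622 libraries and of -3.48, -3.47 and -3.24 in the control libraries. The difference thus spanned 0.26, whereas Slco1a1 itself spanned 1.53 on that scale. The centred profiles differed by a root mean square of 0.09. For the markers themselves, each against the mean of the others, this value was between 0.15 and 1.39 with a median of 0.26, so 0 of 23 markers lay closer to the rest of the list than Slco1a1 did. Among 13739 genes, 1 was closer to the hepatocyte level than Slco1a1. The closeness was found in these libraries and not set out in advance. Slco1a1 rested on 73, 87 and 196 reads in the PLX5622 libraries and on 335, 169 and 89 in the control libraries. Its counting error was 5.46% to 11.7%, and the log2(TPM + 1) scale narrows the spread of weakly expressed genes. Its rank in closeness is therefore uncertain. Alb, the albumin gene, had 552, 442 and 978 TPM in PLX5622 replicates 1 to 3, against 2368, 1135 and 929 TPM in control replicates 1 to 3, lower on average on PLX5622 but with overlap. Set against Alb, Slco1a1 stood at 0.428%, 0.826% and 0.705% of its TPM in the PLX5622 libraries, against 0.368%, 0.328% and 0.478% in the control libraries. By that measure its mean was higher on PLX5622, at 0.653 ± 0.204% against 0.391 ± 0.0776% on the control diet (SD, n = 3 each), and the diets overlapped.

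Slco1b2 behaved differently. It had 2.72, 16.0 and 13.9 TPM in PLX5622 replicates 1 to 3, against 15.8, 11.1 and 6.58 TPM in control replicates 1 to 3. The diets overlapped, with PLX5622 replicate 1 far below the other 5 libraries. The log2 fold change was -0.23 (95% interval -1.59 to 1.12, limma), and without PLX5622 replicate 1 it was 0.47. Its difference from the hepatocyte level was -3.36, -1.54 and -2.49 in the PLX5622 libraries and -2.69, -2.11 and -2.76 in the control libraries. That difference spanned 1.82, against a span of 2.20 of Slco1b2 itself, and 21 of 23 hepatocyte markers lay closer to the rest of their list than Slco1b2 did. The centred profile of Slco1b2 differed from the hepatocyte list by a root mean square of 0.56 and from the list of cholangiocyte markers, the cells of bile ducts, by 0.43; from which cells its transcripts came was not tested. Set against Alb, Slco1b2 stood at 0.492%, 3.63% and 1.42% of its TPM in the PLX5622 libraries, against 0.667%, 0.977% and 0.709% in the control libraries. Relative to Alb, PLX5622 replicate 1 was thus the lowest library and PLX5622 replicate 2 the highest.

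Slco1a4 lay near the limit of detection, with a mean of 0.327 TPM over the libraries, under the filter. It had 26, 9 and 5 reads in PLX5622 replicates 1 to 3, or 0.863, 0.387 and 0.180 TPM, against 20, 0 and 0 reads in control replicates 1 to 3, the first being 0.532 TPM. Libraries of both diets were above 0, and a library with 0 reads allows up to 3, or 0.0670 TPM in control replicate 2 and 0.151 TPM in control replicate 3. The log2 fold change was 0.33 in a fit without the filter (95% interval -0.23 to 0.89, limma). The authors' deposited table has 1.40 (SE 1.51) and voom on the recovered reads gave 2.94 (95% interval -0.51 to 6.40), so the size of the difference depended on how values near 0 were treated. As far as so few reads can show, the gene did not follow the hepatocyte level. PLX5622 replicate 1, which had the least hepatocyte RNA, had the most Slco1a4 reads. The centred profile of Slco1a4 differed from the hepatocyte list by a root mean square of 0.62 and from the continuous and large vessel list by 0.18. Slco1a4 itself spread by 0.33 and the hepatocyte level by 0.51. A gene that varies little lies far from the hepatocyte list in any case, so these differences name no source.

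**Figure D5:**
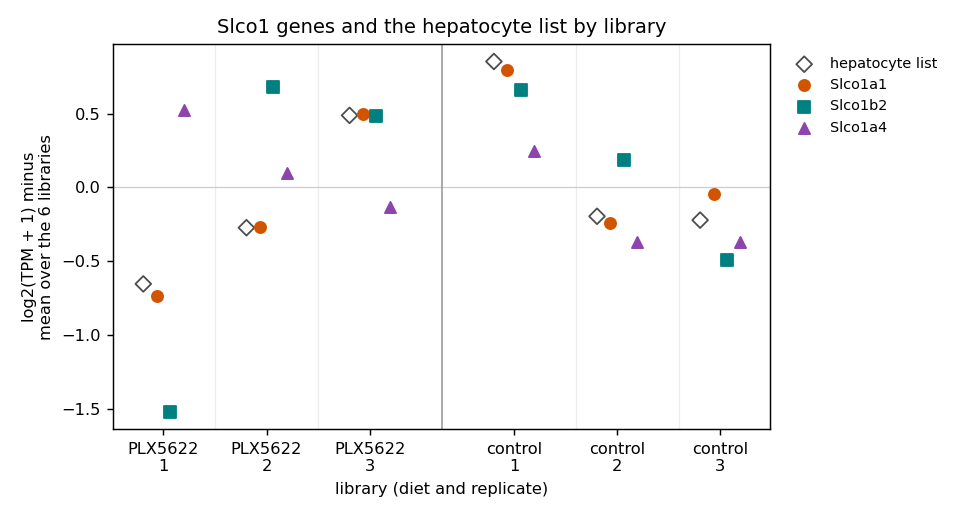
Log2(TPM + 1) of Slco1a1, Slco1b2 and Slco1a4 (filled symbols) and the mean over 23 hepatocyte markers (open diamonds), each minus its own mean over the 6 libraries, in PLX5622 replicates 1 to 3 (left) and control replicates 1 to 3 (right). Slco1a1 stays beside the hepatocyte list in each library, Slco1b2 lies far below it in PLX5622 replicate 1, and Slco1a4 is highest there.

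Slco1a4 is known to be induced through the nuclear receptor PXR in mouse liver, and its values can be set beside those of other genes that the receptors PXR and CAR induce. Cyp2b10, a classical CAR target, had 26, 41 and 118 reads in PLX5622 replicates 1 to 3, against 0, 0 and 0 in control replicates 1 to 3. Cyp2c29, another drug-metabolizing P450, had 23.7, 78.2 and 113 TPM in the PLX5622 libraries, against 14.5, 14.9 and 4.32 TPM in the control libraries. Among the PLX5622 libraries both P450 genes were highest in replicate 3, where Slco1a4 was lowest and the hepatocyte level highest. Cyp3a11, a further P450 gene, had 4.51, 29.6 and 13.2 TPM in PLX5622 replicates 1 to 3, highest in replicate 2. In the control libraries it had 10.3, 2.94 and 0.482 TPM, so its diets overlapped. With so few reads of Slco1a4 its course among the PLX5622 libraries is uncertain, and whether PXR acted on it was not tested. Of 19 tested genes in the list of CAR and PXR targets, 15 had a fold change above 0 and 4 below it, with a median of 0.46, and 0 passed the adjusted test (limma). The diets did not overlap for 4 of the 19, all higher on PLX5622, against 4.18% of all genes tested. One of the 4, Cyp2b10, passed the filter on low values only through its PLX5622 libraries and so had to differ. In the authors' deposited table Cyp2b10 and Cyp2c54 are called, where 0.0729% of all genes are.

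The promoter windows of 6 members were found in RefSeq (build GRCm38.p6). Those of Slco1a1, Slco1a4 and Slco1b2 are poor in GC, at 40.4%, 39.2% and 33.6% of the 250 bases before the start site, and hold 0 CG dinucleotides each. The outermost windows of Slco2b1 and Slco4a1 have 58.0% and 64.8% GC with 4 and 21 CG dinucleotides. Over 32851 windows of that length the middle 50% lay between 45.2% and 61.2% GC. The windows of Slco1a1 (chr6:141946963-141947212, minus strand) and Slco1b2 (chr6:141629268-141629517, plus strand) are printed because both proteins act at the sinusoidal membrane of hepatocytes while the profiles of their transcripts were unlike. Capitals mark matches, on either strand, to the HNF1 half-site GTTAAT (HNF1 is a transcription factor of hepatocytes), to the nuclear receptor half-site AGGTCA, and to its variant AGTTCA.
Slco1a1: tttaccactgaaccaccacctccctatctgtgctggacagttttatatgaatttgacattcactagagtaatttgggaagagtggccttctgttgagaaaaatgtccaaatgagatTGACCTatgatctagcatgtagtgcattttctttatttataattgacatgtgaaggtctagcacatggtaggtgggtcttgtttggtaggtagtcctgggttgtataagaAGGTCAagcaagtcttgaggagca
Slco1b2: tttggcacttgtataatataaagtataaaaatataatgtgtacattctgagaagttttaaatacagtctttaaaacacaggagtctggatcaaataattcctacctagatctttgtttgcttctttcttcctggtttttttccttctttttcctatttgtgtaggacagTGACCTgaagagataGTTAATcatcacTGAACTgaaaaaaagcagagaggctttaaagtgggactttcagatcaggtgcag
The Slco1a1 window has AGGTCA 24 bases before the start and, on the opposite strand, 134 bases before it. The Slco1b2 window has AGGTCA 81 bases and AGTTCA 54 bases before the start, both on the opposite strand, and GTTAAT 66 bases before it. No match overlaps another. GTTAAT occurs in 6.43%, AGGTCA in 14.0% and AGTTCA in 11.8% of all windows, so each match is a description of these letters and no more.

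Reads of the Slco1 genes could in part belong to a neighbouring relative. Of the 50-base words in GENCODE M21 transcripts, 1.64% of those of Slco1a1 and 1.61% of those of Slco1a4 also occur in another Slco gene, most of them shared between Slco1a1 and Slco1a4 or between Slco1a4 and Slco1a5. For the other 5 members the share was 0%. The exons of Slco3a1, Slco4a1, Slco1a1, Slco1a4 and Slco1b2 overlap those of 0 other genes in this annotation.

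Of the 17 Slco genes listed for mouse, 15 were in the table, and 8 of these were not members. Slco1a5, Slco1a6, Slco4c1, Slco6b1, Slco6c1 and Slco6d1 were listed at 0 in all 6 libraries. Slco5a1 had 4, 0 and 10 reads in PLX5622 replicates 1 to 3, against 19, 7 and 6 reads in control replicates 1 to 3. Slco1c1, the thyroxine carrier of brain endothelium, was listed at 0.720, 0 and 0.391 TPM in PLX5622 replicates 1 to 3 and at 0 in all 3 control libraries. Both genes were scarce, and their diets overlapped.

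Other carriers of the same substrates were compared from lists. Slc10a1, the sodium-dependent bile salt carrier of hepatocytes, had 11.3, 12.6 and 22.1 TPM in PLX5622 replicates 1 to 3, against 23.4, 14.3 and 20.7 TPM in control replicates 1 to 3. Of 7 tested hepatocyte uptake carriers 2 had a fold change above 0 and 5 below it, with a median of -0.13, and 0 passed. Of 16 efflux pumps 5 were above and 11 below 0, with a median of -0.11, and 0 passed. Abcg2, which exports sulfated steroids, averaged 116 ± 14.0 TPM on PLX5622 and 105 ± 11.1 TPM on the control diet (SD, n = 3 each). Among the others Abcc2, which exports conjugates into bile, averaged 2.69 ± 1.90 TPM on PLX5622 and 2.58 ± 1.25 TPM on the control diet, and Abcc3, which exports them into blood, 6.28 ± 2.04 TPM on PLX5622 and 7.94 ± 1.80 TPM on the control diet (SD, n = 3 each). Of 10 tested regulators of hepatic uptake genes 3 were above and 7 below 0, and 0 passed. Pdzk1, a scaffold protein that holds Slco1a1 at the hepatocyte membrane, had 9.23, 5.80 and 8.48 TPM in PLX5622 replicates 1 to 3, against 11.2, 11.2 and 10.1 TPM in control replicates 1 to 3. The diets did not overlap for Pdzk1, 1 of the 10 regulators, near the 8.68% of all genes tested, so nothing is read from this. Its log2 fold change was -0.44 (95% interval -0.92 to 0.03, limma).

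Genes that make, sense and break down prostaglandins share substrates with Slco2a1. Of 13 tested, 4 had a fold change above 0 and 9 below it, with a median of -0.08, and 0 passed the adjusted test (limma). Hpgd, the enzyme that inactivates prostaglandins after uptake, had 91.8, 112 and 130 TPM in PLX5622 replicates 1 to 3, against 114, 202 and 170 TPM in control replicates 1 to 3. Tbxa2r, the thromboxane receptor, had 44.7, 32.1 and 42.5 TPM in the PLX5622 libraries, against 48.0, 62.3 and 67.4 TPM in the control libraries. The diets overlapped for Hpgd and did not for Tbxa2r or for Ptgis, the prostacyclin synthase, which was also lower on PLX5622; 8.68% of all genes had no overlap. Of 12 tested genes of thyroid hormone transport and response 5 were above and 7 below 0, with a median of -0.20. Thrsp, a thyroid hormone responsive gene of fat synthesis, had 56.5, 32.3 and 32.9 TPM in PLX5622 replicates 1 to 3, against 133, 69.4 and 53.2 TPM in control replicates 1 to 3, with overlap between the diets. In the lists of heme and bilirubin handling (10 above and 3 below 0) and of steroid sulfate metabolism (4 above and 7 below 0), 0 genes passed. Flvcr2, a heme carrier, averaged 2.13 ± 0.476 TPM on PLX5622 and 1.53 ± 0.150 TPM on the control diet, and Papss1, which makes the sulfate donor of sulfotransferases, 44.8 ± 3.17 TPM on PLX5622 and 50.7 ± 3.93 TPM on the control diet (SD, n = 3 each).

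By a rule that looked for the genes of most similar profile among 10580 with a mean of at least 5 TPM, predicted genes and pseudogenes left out, those near Slco2b1 included Sema7a and Ttc8, which differed from it by a root mean square of 0.12 and 0.14 on the centred log2 scale. Sema7a, a membrane-anchored semaphorin, had 25.7, 20.6 and 22.3 TPM in PLX5622 replicates 1 to 3, against 13.7, 13.6 and 17.3 TPM in control replicates 1 to 3. The diets did not overlap for Sema7a; since it was picked for likeness to Slco2b1, this is no separate result. The closest to Slco2a1 were Ift22, Gid8 and Tep1, at 0.04, 0.04 and 0.05, in a gene whose own profile spread by 0.19. Those near Slco1b2 included genes of hepatocytes, the connexin gene Gjb1 and the urinary protein gene Mup22, at 0.23 and 0.24. Gjb1 had 3.55, 13.6 and 14.2 TPM in PLX5622 replicates 1 to 3, against 16.9, 8.47 and 5.25 TPM in control replicates 1 to 3, and was lowest in PLX5622 replicate 1 like Slco1b2.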

How the data were processed

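Polyadenylated RNA of sorted liver endothelial cells was sequenced in 6 non-stranded libraries, per the labels' protocols. Per the submitters' processing notes, which give no roles or order, the build was mm39 and the tools included the aligner STAR (version 2.7.10a), Subread with featureCounts (version 2.0.1), and, in R version 4.1.0, DESeq2 version 1.32.0. Annotation and settings: not given in the sources used here. TPM for 26264 genes make up the expression table that the authors deposited. Their deposited comparison table covers 15097 genes. Its columns are a normalized count averaged over libraries (a signal), log2 fold change with SE, the Wald score, and the raw and adjusted p-value, all from the authors.

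Groups and replicate numbers came from the titles, which call the samples biological replicates; what was separate between them is not stated. A limma fit (version 3.58.1, R 4.3.3, trended prior variance) was run on log2(TPM + 1) for the 13739 genes averaging 1 TPM or more, and p-values were adjusted by Benjamini-Hochberg at 0.05. The fold change on this scale understates that of weakly expressed genes. The fit was also run on simulated data with known changes, the outcome of which is not reported here. With so few libraries, the lack of calls does not mean that no gene differed. TPM keep no depth, so reads per gene were worked out from the TPM and the deposited mean normalized counts; below 50 reads, 100% of values came out within 0.05 of a whole number. Read numbers and floors cover counting error only. The alternatives were other pseudocounts, filters, scalings, fit options, voom on the reads, a replicate block, cell type levels as covariates and leaving out each library. The members and lists were chosen with earlier results of these data known. Genes were named by rule: the members, other detected Slco genes, the 2 of smallest p per list, a fixed set of markers and carriers, and the 3 closest profiles of Slco2b1, Slco2a1 and Slco1b2. Some genes of the rule are not reported here, and Ptgis, Flvcr2, Cyp2c54 and Pdzk1 are also named for not overlapping, after their values were seen. Promoter sequences are from RefSeq, build GRCm38.p6, which is not the authors' build.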

Additional observations from a re-analysis of the deposited data

How the results depend on the processing

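limma called 0 genes in the diet comparison under all 19 alternatives, including voom on the recovered reads and a replicate block (0 genes at an adjusted p under 0.05, with 821 at an unadjusted p under 0.05 with the block and 459 without it). The deviations of same-numbered libraries correlated by 0.20, 0.14 and 0.09, each library best with its own number; since 1 value was under 0.1, the numbers were not treated as pairs. The log2 fold change of Slco2b1 kept its sign in 19 of 19 alternatives, at 0.49 to 0.73, and at 0.53 to 0.73 without single libraries. The others depended on single libraries: without each in turn, Slco2a1 lay between -0.10 and 0.14, Slco3a1 between -0.14 and 0.22, Slco4a1 between -0.21 and 0.38, Slco1a1 between -0.67 and -0.03, Slco1a4 between 0.15 and 0.54 and Slco1b2 between -0.63 and 0.47. With the Kupffer level as a covariate, which itself did not overlap between the diets, Slco3a1 was at -0.34, Slco1a1 at 0.14 and Slco1b2 at 0.67. The mean of the 3 Slco1 genes minus the hepatocyte level was -3.71 ± 0.32 on PLX5622 and -3.92 ± 0.17 on the control diet (SD, n = 3 each), a difference of 0.21. That difference was 0.53 with a pseudocount of 0.1 TPM, 1.05 with Alb alone as the hepatocyte measure, and 0.04 to 0.37 without single libraries; the cause was not tested. Taken singly, Slco1a1 minus the hepatocyte level differed by -0.05 between the diets, and Slco1b2 by 0.06. Slco1a4, with at most 26 reads in a library, had a log2 fold change of 0.33, while the hepatocyte level differed by -0.29. With 0.1 TPM added, Slco1a4 was at 1.46, against -0.42 for Slco1a1 and -0.30 for Slco1b2. The 0.21 and 0.53 thus rested mainly on Slco1a4 and show no rise of the 3 genes as a group. Depth limits Slco1a4 and Slco4a1 most, and Slco1a1 and Slco1b2 in the libraries with the fewest reads.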

Other observations

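In the marker lists of other cell types 0 genes passed the adjusted test (limma). Of 6 tested lymphatic endothelial genes 5 had a fold change above 0, with a median of 0.34. Prox1, a transcription factor of that lineage, averaged 23.7 ± 4.16 TPM on PLX5622 and 17.8 ± 2.26 TPM on the control diet (SD, n = 3 each), with overlap. The summed lymphatic level also overlapped, at 825 to 1172 TPM in PLX5622 libraries and 689 to 1222 TPM in control libraries. Of 20 markers of continuous and large vessels 14 were above 0, with a median of 0.11, and of 16 sinusoidal markers 13 were below 0, with a median of -0.15. Stab2, a scavenger receptor of sinusoidal endothelium, had 279, 474 and 684 TPM in PLX5622 replicates 1 to 3, against 343, 1007 and 993 TPM in control replicates 1 to 3. Other sinusoidal markers went the other way: Fcgr2b, an Fc receptor and the marker of smallest p in the list, averaged 323 ± 43.1 TPM on PLX5622 and 245 ± 34.6 TPM on the control diet, and Lyve1, a hyaluronan receptor, 689 ± 229 TPM on PLX5622 and 602 ± 203 TPM on the control diet (SD, n = 3 each), with overlap in both. Of 16 pan-endothelial markers 7 were above 0, of 9 tested markers of blood-brain barrier endothelium 4, of 12 tested stellate cell and fibroblast genes 7, and of 7 tested cholangiocyte genes 3. The summed cholangiocyte level was 14.3, 102 and 66.9 TPM in PLX5622 replicates 1 to 3 and 65.7, 126 and 32.1 TPM in control replicates 1 to 3, lowest in PLX5622 replicate 1, where Slco1b2 was lowest too. Of 23 hepatocyte markers 18 were below 0, with a median of -0.41.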
